A study of Mus musculus with 18 samples.

Results

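A set of 1727 autosomal regions was followed in which the DNA of wild-type (WT) splenic CD4+ cells was less methylated than that of WT splenic CD11b+ cells. They were drawn from 135766 region pairs. A pair joined a row of the deposited CD11b+ table with a row of the deposited CD4+ table that overlapped it by at least 50% of the length of both. A pair became a member when WT methylation in CD11b+ cells exceeded WT methylation in CD4+ cells by at least 20 percentage points. The rows of a pair had identical ends at 38 members (2.2%, against 6.89% of all pairs). Sites not shared by the rows therefore enter the gap, and their part in it was not tested. The coordinates, length, CpG count and sequence given for a member are those of the stretch shared by both rows. Its methylation levels are the means of the full rows, which mostly reach further. The rule was met by 1.27% of the pairs, and the opposite gap of at least 20 points was met by 5742 pairs, or 4.23%. The WT levels and their gap therefore chose the members and are given here as a description only. The levels in mutant cells were not part of this rule. The listed regions themselves, however, came from the authors' comparison of both genotypes within each cell type.

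The study profiled the methylome by whole-genome bisulfite sequencing, in which unmethylated cytosines are converted and methylated ones are read as cytosine. Cells came from the spleens of Dnmt3a+/+ mice, called WT below, and of mice heterozygous for the Dnmt3a R878H mutation, labelled Dnmt3aR878/+ and written R878H/+ below. The R878H allele is a floxed knock-in switched on by Vav1-iCre, which acts in hematopoietic cells. Controls of the study's transplants carried Cre or the floxed allele but not both, and which of these the WT spleens came from is not given in the sources used here. CD11b+ cells (granulocytes, monocytes and macrophages for the most part) and CD4+ cells (helper and regulatory T cells for the most part) were taken on magnetic columns without a sort. Each of the 4 groups held 4 mice, and the labels state no age, sex or treatment. The tables hold only the mean of each group for each region, and neither the levels of individual mice nor the coverage. No error between mice could be computed and no test across mice was possible, so all differences below are differences between group means. Regions are not replicates of a genotype. A different mix of cells in a magnetic fraction and a different methylation level within its cells cannot be told apart in such means. Genotype in CD4+ cells also went largely with a numbering in the sample titles, whose meaning is not stated. The part of that numbering was not tested.

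DNA methylation in mammals sits mostly on cytosines followed by guanine (CpG). DNMT3A places new methyl groups, DNMT1 copies existing ones at replication, and TET enzymes start their removal. The R878H change lies in the catalytic domain and corresponds to the R882H hotspot of human clonal hematopoiesis. Most of the genome is methylated in blood cells, and enhancers and promoters in use by a lineage tend to be its less methylated islands, many of them bound by the transcription factors of that lineage.

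The stretches below are shown because they have the widest WT gaps among members at genes of 3 T-cell gene lists (receptor and signalling genes, transcription factors, and cytokine receptor and homing genes). They are read from the plus strand of mm10 (RefSeq GRCm38.p6) and printed in lower case with each CpG in capitals. The Satb1 and Ubash3a stretches are the central 300 bases of their members, and the Bcl11b stretches are whole members. A member here is the stretch shared by both rows, so the levels given below were not measured on the printed bases alone.
Satb1, promoter, chr17:51827083-51827382: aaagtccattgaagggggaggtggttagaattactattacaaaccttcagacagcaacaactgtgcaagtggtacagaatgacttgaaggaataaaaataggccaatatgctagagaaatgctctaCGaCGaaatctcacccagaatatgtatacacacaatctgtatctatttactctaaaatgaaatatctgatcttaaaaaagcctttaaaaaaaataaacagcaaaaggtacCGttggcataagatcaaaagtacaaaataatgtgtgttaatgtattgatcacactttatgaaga
Bcl11b, intron, chr12:107921702-107921863: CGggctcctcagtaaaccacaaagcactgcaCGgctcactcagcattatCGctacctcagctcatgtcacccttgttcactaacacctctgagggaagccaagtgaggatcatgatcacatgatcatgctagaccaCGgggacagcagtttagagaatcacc
Bcl11b, intron, chr12:107999632-107999834: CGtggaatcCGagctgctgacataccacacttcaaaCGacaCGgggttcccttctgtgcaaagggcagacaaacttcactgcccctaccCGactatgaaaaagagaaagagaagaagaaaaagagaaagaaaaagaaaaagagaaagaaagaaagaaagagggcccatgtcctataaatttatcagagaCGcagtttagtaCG
Bcl11b, intron, chr12:107918688-107918846: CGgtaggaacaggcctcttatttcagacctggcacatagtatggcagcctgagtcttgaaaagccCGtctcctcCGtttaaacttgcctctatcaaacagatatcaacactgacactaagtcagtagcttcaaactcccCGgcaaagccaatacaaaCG
Bcl11b, intron, chr12:107923218-107923471: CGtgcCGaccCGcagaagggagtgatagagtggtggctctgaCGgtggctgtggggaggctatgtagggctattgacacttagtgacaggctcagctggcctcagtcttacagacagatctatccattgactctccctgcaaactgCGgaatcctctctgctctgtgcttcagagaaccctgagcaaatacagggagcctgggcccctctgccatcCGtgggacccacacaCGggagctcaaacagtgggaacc
Ubash3a, exon, chr17:31209423-31209722: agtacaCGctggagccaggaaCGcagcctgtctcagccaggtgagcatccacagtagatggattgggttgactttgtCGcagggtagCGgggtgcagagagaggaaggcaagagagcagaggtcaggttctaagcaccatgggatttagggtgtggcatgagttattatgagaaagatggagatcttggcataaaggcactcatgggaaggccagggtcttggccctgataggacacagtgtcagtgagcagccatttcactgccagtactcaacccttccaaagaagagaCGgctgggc

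The stretches hold 3 CpGs in 300 bases at Satb1, 5 in 300 bases at Ubash3a, and 4, 7, 5 and 7 in the shorter Bcl11b stretches, in the order printed. The median member was 366 bp long and held 5 CpGs, or 14.5 per kb, against 450 bp and 13.4 per kb over all pairs. The Bcl11b stretches starting at 107921702 and 107999632 each contain the letters TGTGGT of a RUNX motif on 1 of their strands, and the stretches at Satb1, at Ubash3a and at Bcl11b from 107923218 contain the E-box letters CAGNTG. The Ubash3a stretch also contains the ETS letters AGGAAG.

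In WT cells the members had a median methylation of 74.5% in CD11b+ cells (interquartile range 61.3 to 84.7) and 45.0% in CD4+ cells (31.2 to 56.3). The median gap was 25.7 points and the widest 62.9. Few members were empty of methylation in CD4+ cells, since only 51 of 1727 (2.95%, against 1.01% of all pairs) lay under 10%. Across all pairs the WT medians were 86.0% in CD11b+ and 87.7% in CD4+ cells, so members were partly methylated in CD4+ cells within a genome that was mostly methylated. Just inside the threshold were regions at Peg10 and Arhgap25 with a gap of 20 points each. Just outside were regions at Ifnar1 (19.994) and Hspa4 (19.983).

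The gap between the cell types was also present in the mutant mice. In R878H/+ cells the median methylation was 61.7% in CD11b+ and 34.3% in CD4+ cells, and the median gap of the members was 24.6 points (interquartile range 18.2 to 31.1). Of the 1727 members, 1188 (68.8%) had a gap of at least 20 points in R878H/+ cells, where 1.76% of all pairs had one. The gap had the same direction as in WT in 1708 members (98.9%), where CD11b+ exceeded CD4+ cells in 42.3% of all pairs, and was zero or reversed in 19. It was wider in R878H/+ than in WT at 651 members (37.7%). Over all pairs, the signed CD11b+ minus CD4+ value was larger in R878H/+ at 52.8%. That share is no measure of wider gaps, since a larger value is a narrower gap where the value is negative. Among the 5742 regions with the opposite WT gap, 3894 (67.8%) had that gap of at least 20 points in R878H/+ cells, a share close to that of the members.

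**Figure D1:**
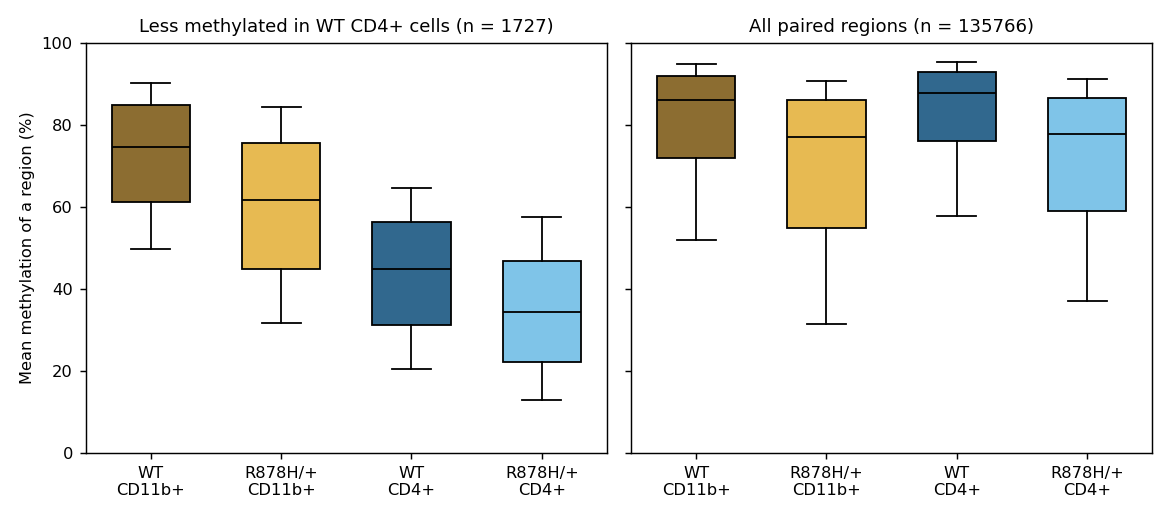
Mean methylation (%) of each region in the 4 groups, for the 1727 members (left) and all 135766 pairs (right). Boxes span the quartiles with the median as a line, and whiskers reach the 10th and 90th percentiles over regions; the member medians are 74.5, 61.7, 45.0 and 34.3%, with CD4+ below CD11b+ cells in both genotypes.

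**Figure D2:**
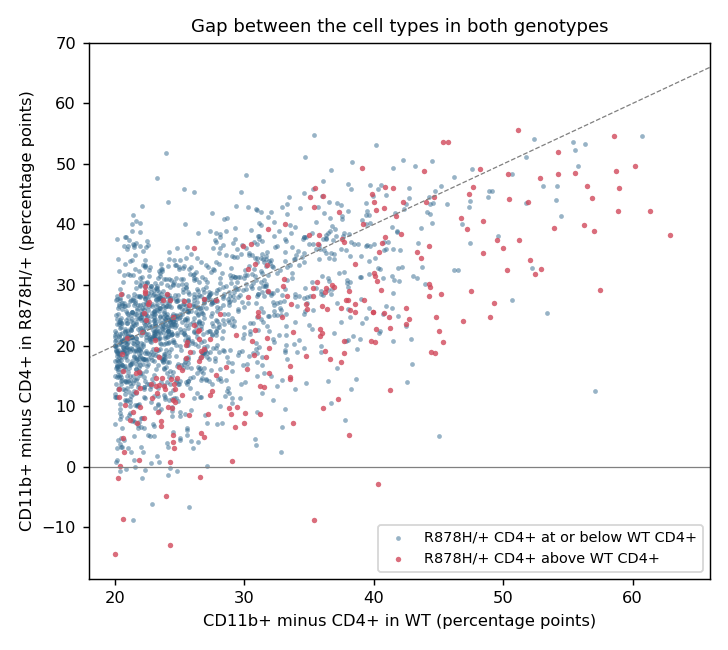
CD11b+ minus CD4+ methylation (percentage points) in WT (horizontal) and R878H/+ (vertical) for each member. The dashed line marks equal gaps, and red points are the 265 members with higher methylation in R878H/+ than in WT CD4+ cells; 19 members lie at or below 0 on the vertical axis.

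Methylation was lower in R878H/+ than in WT in both cell types at 1442 members (83.5%), which was less frequent than over all pairs (94.8%) or the opposite gap (98.3%). The median difference was 10.9 points in CD11b+ and 9.68 points in CD4+ cells. Over all pairs the median differences were 8.23 and 8.70 points, and over the regions with the opposite gap they were 17.2 and 18.7. R878H/+ CD11b+ cells were at least 20 points below WT at 302 members (17.5%, against 12.7% of all pairs). R878H/+ CD4+ cells were at least 20 points below WT at 101 members (5.85%, against 12.9% of all pairs). The WT levels that enter these differences also chose the members. As a share of the WT level, the median member kept 84.5% in CD11b+ and 77.0% in CD4+ cells, whereas the median over all pairs was 89.97% and 89.56%. The regions with the opposite gap kept 62.5% in CD11b+ cells, the less methylated type there, and 74.3% in CD4+ cells.

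A minority of members went the other way in CD4+ cells. Methylation was higher in R878H/+ than in WT CD4+ cells at 265 members (15.3%), where 2.38% of all pairs had this direction. The difference reached at least 5 points at 197 members (11.4%, against 0.396% of all pairs). In CD11b+ cells, R878H/+ was above WT at 120 members (6.95%, against 3.42% of all pairs), and by at least 5 points at 86 (4.98%, against 0.65%). At 100 members it was above WT in both cell types (5.79%, against 0.642% of all pairs). This direction was rare among the regions with the opposite gap, with 90 of 5742 (1.57%) in CD11b+ cells, the less methylated type there.

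The wider the WT gap, the larger was the share of members with this direction. It was 8.77% of 1175 members with a gap from 20 to 30 points, 21.2% of 382 from 30 to 40, 43.3% of 127 from 40 to 50, and 60.5% of 43 at 50 points or more. The median R878H/+ minus WT difference in CD4+ cells went from -10.8 points in the narrowest class through -8.15 and -3.13 to 8.13 points in the widest. In the matching classes of the opposite gap, the share with R878H/+ above WT in CD11b+ cells was 1.29, 1.96, 4.43 and 6.90%, and the median difference stayed below zero, from -17.6 to -8.03 points. The median gap in R878H/+ cells still widened over the member classes, from 22.1 through 29.996 and 36.1 to 44.3 points. The WT CD4+ level enters both the WT gap and the R878H/+ minus WT difference in CD4+ cells. A wide WT gap therefore favours a higher R878H/+ level by construction, as it does for CD11b+ cells at the opposite gap. How much of the trend this accounts for was not tested.

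**Figure D3:**
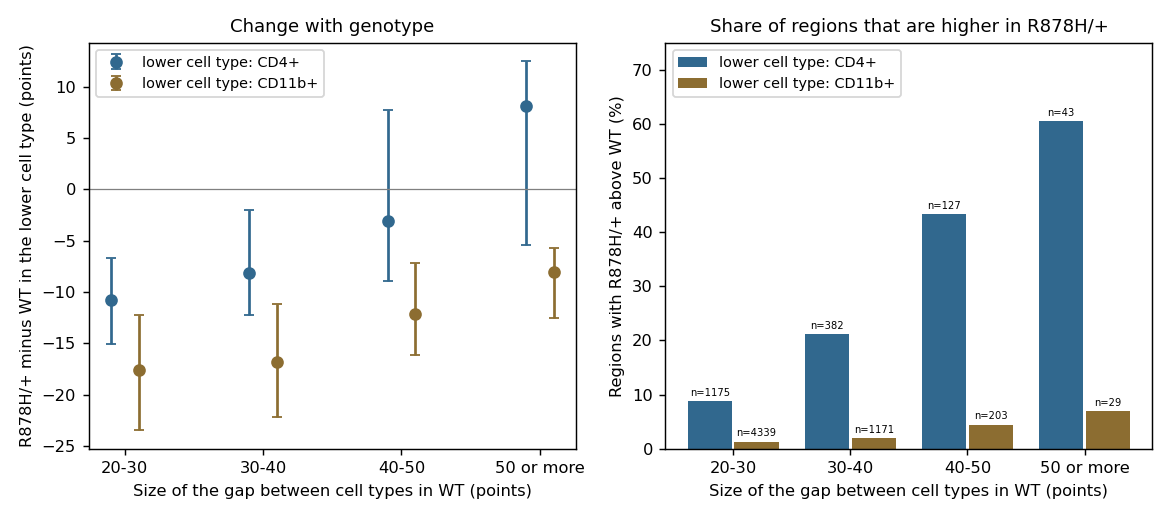
Left, median R878H/+ minus WT methylation (percentage points, bars from the lower to the upper quartile over regions) in the cell type that is less methylated in WT, by the size of the WT gap. The WT level of that type enters both the gap and the difference. Right, the percentage of regions with R878H/+ above WT in that type: it is 8.77, 21.2, 43.3 and 60.5% for the members (CD4+, blue) and 1.29 to 6.90% for the opposite gap (CD11b+, brown).

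A wide WT gap goes with a low WT level in CD4+ cells, so members were set beside other pairs of the same WT CD4+ level. That matching leaves the choice by the WT gap in place, since members of each class were still picked by their WT levels. How much of the difference in shares this choice accounts for was not tested. Between 20 and 30% WT methylation in CD4+ cells, R878H/+ was above WT in 47 of 226 members (20.8%) and in 41 of 1067 other pairs (3.84%). Between 40 and 50% the shares were 14.3% of 370 members and 1.51% of 3118 other pairs, and between 60 and 70% they were 11.9% of 261 and 0.710% of 9714. Among the classes up to 80%, only under 10% were the shares near each other, at 29.4% of 51 members and 25.4% of 1316 other pairs. The shares depend on which genotype picks the regions. Among the 2392 pairs with a CD11b+ minus CD4+ gap of at least 20 points in R878H/+ cells, 182 (7.61%) had higher methylation in R878H/+ than in WT CD4+ cells. At a gap of at least 40 points in R878H/+ it was 42 of 154 (27.3%), against 81 of 170 (47.6%) at the same size of gap in WT. Both choices stood above the 2.38% of all pairs, but they share many regions. Of the 2392 pairs, 1188 also met the WT rule, and these held 166 of the 182 (14.0% of the 1188). The choice by R878H/+ is therefore no independent support for the share among members.

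The 265 members with higher methylation in R878H/+ CD4+ cells differed from the other 1462 in several ways that the rule did not use. They were shorter (median 279 against 384.5 bp) and denser in CpGs (19.8 against 13.8 per kb). They lay at promoters less often (6.79% against 14.7%). Of the 8 motifs described below, RUNX was found in 35.1% of them and 25.8% of the others, E-box in 64.2 and 58.4%, TCF/LEF in 24.5 and 21.1%, C/EBP in 49.1 and 47.9% and AP-1 in 10.9 and 10.5%. The other motifs were less frequent in them, with ETS in 37% against 41.2%, PU.1 in 17.7% against 22.6% and GATA in 15.5% against 16.4%. In CD11b+ cells, R878H/+ was above WT at 100 of the 265 (37.7%) and at 20 of the 1462 (1.37%). The share also varied with the windows. Members whose 2 windows had both ends within 50 bp of each other had R878H/+ above WT in CD4+ cells in 32.7% of 226, and members with more than 10 cytosine sites in both windows in 12.6% of 372.

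Members lay closer to genes than pairs in general. Promoters, taken as 1 kb to each side of an annotated transcription start, held 233 members (13.5%) and 6.16% of all pairs, with 10.7% of the regions with the opposite gap. The promoter share depended on how well the windows matched. It was 8.24% of members with 80% overlap of both windows, and 4.42% of those with window ends within 50 bp. The shares of all pairs under these alternatives are not given here. Introns held 768 (44.5%), exons 133 (7.70%) and the space between genes 593 (34.3%, against 44.5% of all pairs). The median distance to the nearest start was 15418 bp, against 26988 bp for all pairs and 16213.5 bp for the opposite gap. Higher R878H/+ methylation in CD4+ cells was found at 7.73% of promoter members, 18% of exon members, 16.8% of intron members and 15.9% of members between genes. Over all pairs the shares were 3.44, 4.13, 2.29 and 1.99% in the same order, so promoters stood lowest among members but not over all pairs.

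Pairs that did not meet the rule had a median WT gap of -0.938 points within 1 kb of a member and -1.60 points 1 to 2 kb away. These medians leave out neighbours that were members, and they lay near the median of -1.23 over all pairs. Members still lay near each other, and 84 had another member within 5 kb and 421 within 50 kb. Of the pairs within 1 kb of a member, 6.04% were members themselves, against 1.27% of all pairs. By chromosome the share of pairs that were members ran from 0.812% on chromosome 18 to 1.72% on chromosome 11. The members were nearest to 1464 protein-coding genes, of which 1260 had 1 member and 43 had at least 3.

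Genes of the T-cell lists took 70 members (4.05%), against 1.12% of all pairs and 1.18% of the regions with the opposite gap. At least 1 member lay nearest to 37 of their 82 autosomal genes. By median over these 70 members, methylation was 78.7% in WT and 72.2% in R878H/+ CD11b+ cells, and 45.9% in WT and 39.9% in R878H/+ CD4+ cells. Higher R878H/+ methylation in CD4+ cells was found in 18 of the 70 (25.7%, against 15.3% of all members and 2.38% of all pairs). Of these 18, 13 were among the 33 members (39.4%) at transcription factor genes, and they include all 5 Bcl11b and both Satb1 members. Receptor and signalling genes had 5 of 31 (16.1%), near the share of all members, and cytokine receptor and homing genes 0 of 6. Read the other way, 4.62% of the 1514 pairs at genes of the T-cell lists were members. At NK and CD8 T-cell genes 3 of 59 pairs (5.08%) were members, a share as high on few pairs. Myeloid genes took 3 members (0.174%, against 0.233% of all pairs and 0.644% of the opposite gap), erythroid and progenitor genes 2 (0.116%, against 0.272% of all pairs) and B-cell genes 1 (0.0579%, against 0.116%).

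The defining markers of the labelled cell types were read in the same way. Of 13 CD4 T-cell markers, 11 had a paired region and 7 a member, and these 7 included Cd4, whose single pair was a member (90.5% in WT CD11b+, 81.8% in R878H/+ CD11b+, 58.9% in WT CD4+ and 46.9% in R878H/+ CD4+ cells). No member was nearest to Cd3e, Lck, Themis or Tcf7, and Cd3d and Cd3g had no pair. Regions with the opposite gap lay at 2 of the 13, with 3 at Cd28 (down to -51.9 points) and 1 at Themis. Of 10 myeloid markers 1 had a member (Lyz2) and 5 a region with the opposite gap. Of 6 B-cell markers 1 had a member (Ebf1) and 4 a region with the opposite gap. Of 6 NK and CD8 T-cell markers 1 had a member (Cd8a) and 0 the opposite gap. In CD4+ cells the median over all pairs at myeloid markers was 86.3% in WT and 76.6% in R878H/+, and at B-cell markers 87.1% and 77.1%. No value for the purity of the fractions was used here, and the part of other cells in the result was not tested.

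Among the transcription factors, Satb1, which organizes chromatin in developing T cells, had the member with the widest gap of all, at its promoter 276 bp upstream of a start (chr17:51826864-51827601). Methylation there was 91.9% in WT and 86.6% in R878H/+ CD11b+ cells, and 29.0% in WT and 48.3% in R878H/+ CD4+ cells. CD4+ cells were far below CD11b+ cells in both genotypes, and the mutant CD4+ level stood 19.4 points above WT. A more distant Satb1 member, 43274 bp upstream, was higher in R878H/+ in both cell types, with 55.6 and 76.3% in WT and R878H/+ CD11b+ cells, with 25.7 and 39.8% for CD4+ cells.

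Bcl11b, a factor needed for commitment to the T-cell lineage, had 5 members in its introns out of 32 pairs, and R878H/+ was above WT in CD4+ cells at all 5. The differences in CD4+ cells ran from 5.73 to 16.4 points. At the member 81551 bp inside the gene, methylation was 77.5% in WT and 83.8% in R878H/+ CD11b+ cells, and 21% in WT and 37.4% in R878H/+ CD4+ cells. At the member 3580 bp inside the gene the 4 levels were 77.4, 76.1, 23.4 and 36.7% in the same order. At each of the 5, CD4+ cells were below CD11b+ cells in WT, as the rule requires, and in R878H/+, as at 98.9% of all members. Across all 32 pairs at Bcl11b the median in CD4+ cells was 76.1% in WT and 60.5% in R878H/+, the direction opposite to that at the 5 members. The 5 were chosen by a wide WT gap, which favours a higher R878H/+ level by construction, and the 32 were not.

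**Figure D4:**
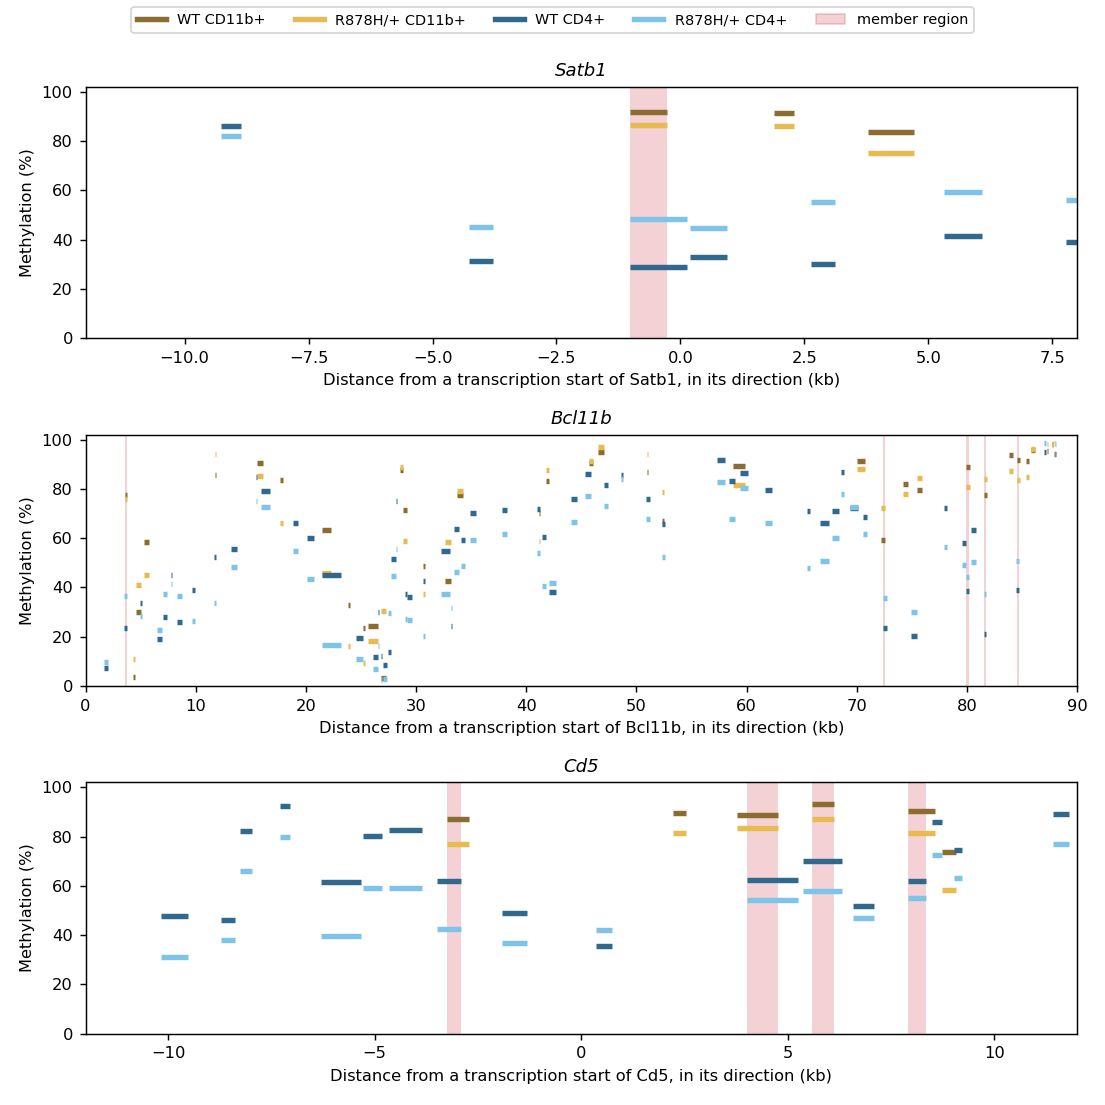
Methylation (%) of every listed window near Satb1, over most of Bcl11b and near Cd5, against the distance in kb from a start of the gene. Each bar spans a window in 1 of the 4 groups and shading marks members, of which 1 of the 2 at Satb1, all 5 at Bcl11b and 4 of the 5 at Cd5 are in view; light blue lies above dark blue at the shaded Satb1 and Bcl11b windows and below it at Cd5.

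Bach2, a repressor that restrains effector programmes in lymphocytes, was nearest to the most members, with 6 of its 50 pairs, while 3 had the opposite gap. R878H/+ was above WT in CD4+ cells at 1 of the 6 members, an intronic region with 87.4% in WT and 78.0% in R878H/+ CD11b+ cells and 42.0% in WT and 57.3% in R878H/+ CD4+ cells. At the other 5 it was lower by 7.06 to 15.1 points. Lef1, a factor of the Wnt pathway in early T cells, had 3 members. The member 173300 bp upstream of Lef1 had 62.7 and 45.7% in WT and R878H/+ CD11b+ cells, with 13.7 and 21.1% for CD4+ cells, so the genotypes were ordered oppositely in the 2 cell types. At Id3, an inhibitor of E-box proteins, the member 15693 bp upstream was at 57.5 and 66.5% in CD11b+ cells, with 16.0 and 20.5% for CD4+ cells, with R878H/+ the higher in both. The other Id3 member, 1833 bp upstream, was 19.7 points lower in R878H/+ CD4+ cells. All 3 members at Runx1, which encodes a RUNX factor of blood stem cells and T cells, were lower in R878H/+ CD4+ cells, by 5.09 to 14.6 points. Of the 108 pairs at Runx1, 4 had the opposite gap.

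Genes of T-cell receptor signalling were mixed. Cd5, a surface receptor that dampens T-cell receptor signals, had 5 members among 11 pairs, all between 87.2 and 93.1% in WT CD11b+ cells and between 62.1 and 70.3% in WT CD4+ cells. R878H/+ CD4+ cells were lower at all 5, by 5.10 to 19.5 points. Cd247, the zeta chain of the CD3 complex, had 4 members among 8 pairs, all intronic. At the Cd247 member with the widest gap, 4830 bp inside the gene, CD11b+ cells were at 90.6% in WT and 84.8% in R878H/+, and CD4+ cells were at 45.4% in WT and 56.2% in R878H/+. At the other 3 Cd247 members R878H/+ CD4+ cells were 3.13 to 13.8 points lower. Ubash3a, a negative regulator of T-cell receptor signals, had an exon member at 88.7 and 79.8% in CD11b+ cells, with 39.4 and 52.7% for CD4+ cells (WT and R878H/+). Its intronic member was lower in R878H/+ in both cell types, by 24.2 and 17.4 points.

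Both members at the phosphatase gene Ptpn22 and all 3 at Rasgrp1, which activates Ras, were lower in R878H/+ CD4+ cells, by 6.95 to 13.0 points. Rasgrp1 also had 2 regions with the opposite gap. Rhoh, a GTPase of blood cells that takes part in receptor signalling, had 4 members, and the 3082 bp upstream one was higher in R878H/+ in both cell types (59.3 and 72.4% in CD11b+, 18.5 and 29.8% in CD4+ cells). The other 3 Rhoh members were lower in R878H/+ in both, by 11.1, 13.7 and 19.3 points in CD4+ cells. Pip4k2a, a lipid kinase, had 5 members and 2 regions with the opposite gap. R878H/+ was above WT in CD4+ cells at 2 of the 5 members. At 1 of the others the gap was gone in the mutant, with 21.5% in R878H/+ CD11b+ and 22.03% in R878H/+ CD4+ cells.

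**Figure D5:**
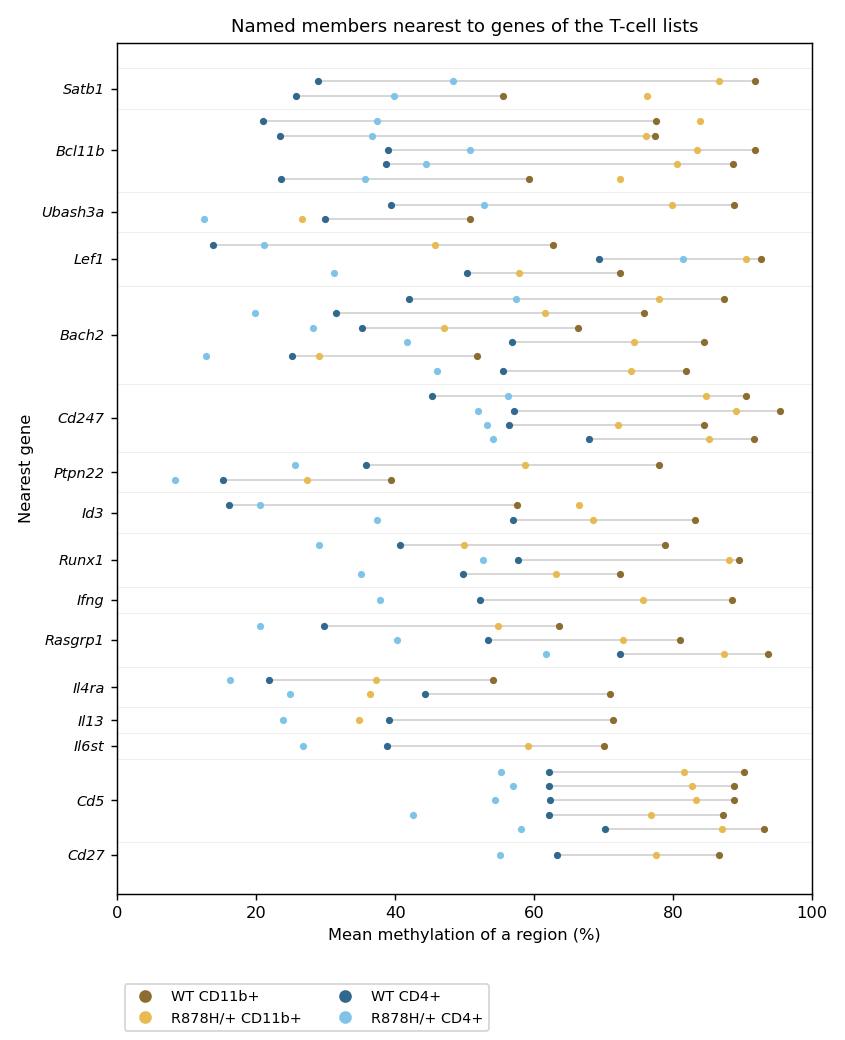
Methylation (%) in the 4 groups at the named members of 16 genes of the T-cell lists, 1 row per member, grouped by nearest gene and ordered by the widest WT gap of the gene. The grey line joins the WT levels of CD4+ and CD11b+ cells; R878H/+ CD4+ (light blue) lies to the right of WT CD4+ (dark blue) at both Satb1 and all 5 Bcl11b members, and to the left at all Cd5 members.

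All 6 members of the cytokine receptor and homing list were lower in R878H/+ in both cell types, as 94.8% of all pairs were. The intronic member 1823 bp inside Il4ra, the receptor chain for IL-4, had 70.9% in WT and 36.3% in R878H/+ CD11b+ cells and 44.3% in WT and 24.8% in R878H/+ CD4+ cells. A region nearest to Il13, a cytokine of type 2 helper cells, had 71.4, 34.8, 39.1 and 23.8% in the same order, and its gap of 32.2 points in WT was 11.0 points in R878H/+. A region 22293 bp upstream of Ifng, the cytokine of type 1 helper cells, had 88.6, 75.7, 52.2 and 37.9%, and its gap was 36.3 points in WT and 37.8 in R878H/+. At Il6st, the shared signalling chain gp130, the promoter member was lower by 11.0 points in CD11b+ and 12.0 points in CD4+ cells. The member at Cd27, a co-stimulatory receptor, was lower by 9.08 and 8.10 points.

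Several of the widest gaps lay at genes with no T-cell list. After Satb1 came an intergenic region whose nearest gene was Adamts20, a secreted protease gene 402384 bp away, with 88.8 and 84.0% in CD11b+ cells, with 27.4 and 41.7% for CD4+ cells (WT and R878H/+). The next were at the receptor phosphatase gene Ptprk (83.2, 72.8, 22.6 and 18.2%), at 2010111I01Rik (90.3, 88.9, 30.2 and 39.3%), at the matrix protein gene Fbln1 (84.2, 85.2, 25.3 and 39.1%) and at Phtf1 (94.0, 89.3, 35.1 and 47.0%). In all of these but Ptprk, R878H/+ was above WT in CD4+ cells. Nearest genes are assignments by distance, and no expression was measured here.

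The widest gaps in R878H/+ cells were nearest to the ghrelin receptor gene Ghsr (55.6 points), Arhgap9 (54.8) and Ptprk (54.7). The Ghsr region lay 91192 bp downstream of the start of Ghsr, and the Ptprk region 43854 bp upstream of a start of Ptprk. At Ghsr R878H/+ was above WT in both cell types, with 65.8 and 82.0% in CD11b+ and 14.7 and 26.4% in CD4+ cells. At the Arhgap9 promoter it was above WT in CD11b+ cells only (69.9 and 76.7%), and CD4+ cells were at 34.4 and 21.9%. The most reversed gap was at the promoter of Peg10, an imprinted gene expressed from the paternal copy, with 52.4 and 36.3% in CD11b+ and 32.4 and 50.8% in CD4+ cells, a gap of 20 points in WT and -14.5 points in R878H/+. It was followed by N4bp2 (24.3 points in WT and -12.9 in R878H/+) and Slco3a1 (21.5 and -8.78). The largest differences downwards in CD4+ cells were at the promoter of the kinase gene Plk3 (83.4 and 48.4% in CD11b+, 57.2 and 21.9% in CD4+ cells), in an intron of Gnptab (32.3 points in CD4+ cells) and at the promoter of Svil (31.8 points).

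The members of the lists for other cells were lower in R878H/+ in both cell types, again the state of 94.8% of all pairs. The intronic member at Kit, the receptor for stem cell factor, had 54.6 and 27.1% in CD11b+ and 17.4 and 10.7% in CD4+ cells. The member at Mecom, a stem cell transcription factor, had 66.7, 48.8, 44.5 and 25.03% in the order WT and R878H/+ CD11b+, WT and R878H/+ CD4+. Cd8a had 94.4, 91.9, 72.0 and 55.6%, and its gap was 22.4 points in WT and 36.2 in R878H/+. The exon member at Eomes, a factor of cytotoxic cells, had 46.3, 36.2, 23.0 and 13.6%. The member at Klrb1c, an NK receptor gene, was lower by 12.3 points in CD11b+ and 4.35 points in CD4+ cells. The 3 members at myeloid genes (Cebpb, Klf4 and Lyz2) had WT gaps of 20.3 to 23.3 points, near the threshold, and the member at Ebf1 a gap of 27.7 points.

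The central 300 bases of each region were searched on both strands for 8 short motifs of blood cell factors. The RUNX letters TGTGGT were found in 27.2% of members, 22.4% of all pairs and 23.9% of the regions with the opposite gap. The E-box letters CAGNTG were found in 59.3, 55.1 and 55.1%, and the TCF/LEF letters CTTTGA in 21.7, 20.6 and 18%. The ETS letters AGGAAG, with 40.6, 37.6 and 48.0%, and the PU.1 letters GGAAGT, with 21.9, 20.9 and 31.9%, were most frequent at the opposite gap, and these motifs overlap each other. The C/EBP letters TTNCNNAA were less frequent in members (48.1%) than in all pairs (52.2%) and the opposite gap (60.6%). GATA letters AGATAA (16.3, 17.3 and 16.4%) and AP-1 letters TGANTCA (10.5, 10.2 and 11.2%) were at near-equal shares. A match is a run of letters and no measure of binding, and the regions differ in length and base composition.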

How the data were processed

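The authors mapped bisulfite reads to mm10 with BISCUIT and listed regions per cell type with metilene. The study's criteria for a differentially methylated region (number of CpGs, size of the difference and false discovery rate) were not applied here. Versions, the settings of the metilene run and a coverage minimum are not given in the sources used here. The deposited tables give, without a header, the number of cytosine sites of each region and its mean methylation in both genotypes in percent. They also hold the authors' comparisons (q-values, differences and p-values), which were not used. The genotypes are unnamed in the tables, and the more methylated one was read as WT from the study's account of its own maps. The R878H/+ CD11b+ group has 6 entries for 4 mice, since some mice were entered again. The S numbers in the sample titles fall into a lower and a higher run. All R878H/+ CD4+ entries and the repeat entries carry the higher run. Most WT CD4+ entries and all WT CD11b+ entries carry the lower run. What the runs stand for is not stated, and in CD4+ cells they go largely with genotype. All means of 10 sites were whole multiples of 1/40, in every group.

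Windows exist only where metilene listed them, and a region enters only if both cell types list it. The tables cover 407396 autosomal CD11b+ and 547975 autosomal CD4+ windows. In 80.5% of the CD11b+ windows of members, the reference holds fewer CpGs than the table lists sites, so the way sites were counted is uncertain. The study states a coverage for its sequencing as a whole, but the depth behind each region is unknown, and no interval was computed from it.

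Windows were paired, annotated with protein-coding genes of GENCODE release M21 and read in GRCm38.p6 with Python 3.11.15, pandas 2.3.3, numpy 2.4.6 and pysam 0.24.0, and plotted with matplotlib 3.10.9. Coordinates are counted from 1. A promoter reached 1 kb to each side of a start, and a region went to the gene with the nearest start. The pairing and counting steps were tested on simulated data. No test was run, because no value of a single mouse was available. Named genes are those of the widest WT gaps, of the most members, of each list (up to 6 genes in a T-cell list, up to 3 in the others), and of the widest, the most reversed and the just-included gaps or largest CD4+ differences. The markers of the CD4 fraction were named in addition, as was the split by direction in CD4+ cells, which was picked after its values were seen. Members and gene lists were chosen with earlier results of these data known. Alternatives were another overlap, gap, site number, window match, promoter size, gene assignment and motif window, weighting by sites, and leaving out antigen receptor loci. The values at 1 gene that the naming rule picks are not reported here.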

Additional observations from a re-analysis of the deposited data

How the results depend on the processing

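The medians kept their direction under the alternatives fitted to all results, but in members with a WT gap of at least 50 points the median WT minus R878H/+ difference in CD4+ cells was -8.13 points. With 80% overlap of both windows, 352 members were left, with a median R878H/+ gap of 22.2 points, a CD4+ difference of 8.99 points, 57.4% keeping the gap of at least 20 points, 20.2% and 4.83% at least 20 points below WT in CD11b+ and CD4+ cells, 8.24% at promoters, and 23.3% with R878H/+ above WT in CD4+ cells. With a WT gap of at least 30 points, 552 members gave 32.4 points, 9.54 (CD11b+) and 6.86 (CD4+) points, 87.5% keeping the gap, 3.26% at least 20 points below WT in CD4+ cells, 5.25% at T-cell genes and 29.3% above WT in CD4+ cells. At 40 and 50 points the last share was 47.6% and 60.5%, and with the R878H/+ gap in place of the WT gap it was 7.61% (20 points) and 27.3% (40 points). With more than 10 sites in both windows, 372 members gave 23.4% (CD11b+) and 7.80% (CD4+) at least 20 points below WT and 12.6% above WT in CD4+ cells. With window ends within 50 bp, 226 members gave 21.5 points, 11.9 (CD11b+) and 8.43 (CD4+) points, 52.7%, 21.7%, 3.10% and 4.42% for the gap kept, the 20-point differences in CD11b+ and CD4+ cells and promoters, and 32.7% above WT in CD4+ cells. A promoter of 2 kb held 19.7%. In the central 200 bases the motif shares of members were 30.7% (ETS), 18.6% (RUNX), 15.3% (TCF/LEF), 11.1% (GATA), 7.41% (AP-1), 34.1% (C/EBP), 46.0% (E-box) and 15.7% (PU.1), as fewer bases were searched. The causes of the other shifts were not tested. The alternatives on the share above WT in CD4+ cells were chosen after seeing the data. The remaining 25 of 67 values, among them all without antigen receptor loci (4 members) and all weighted by sites, lay within a 95% interval over regions around the reported value (order statistics for a median, Wilson for a share) or, for a count, within 1.5 times of it. That interval serves as a yardstick only, since it treats regions as independent and holds no error between mice.

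Leaving out a mouse was not possible, as the tables hold group means. No paired analysis was possible because no column belongs to a single mouse. Differences of a few points cannot be weighed without the spread between mice or the coverage, and regions listed in 1 cell type only are not seen.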

Other observations

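The X chromosome, left out of the rule, had 6 regions that met it among 1095 pairs (0.548%), and 12 with the opposite gap. They were nearest to Cd40lg, the ligand by which helper T cells activate B cells, Sash3, an adaptor of lymphocytes, Sh3kbp1, Xpnpep2, Ppp1r3f and Col4a6. In the intron of Cd40lg methylation was 79.6% in WT and 72.5% in R878H/+ CD11b+ cells, and 56.5% in WT and 48.0% in R878H/+ CD4+ cells. At Sash3, 1737 bp upstream of its start, it was 78.8 and 61.6% in CD11b+ cells, with 51.3 and 31.6% for CD4+ cells. All 6 regions kept a gap of at least 20 points in R878H/+ cells, from 24.5 points at Cd40lg to 35.1 points at Sh3kbp1. None of the 6 was higher in R878H/+ than in WT CD4+ cells, and no count of 6 regions can be set against the autosomal share. The sex of the mice in each group is not stated in the labels.

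Of the autosomal members, 4 lay in antigen receptor loci, 3 of them nearest to Trac, the constant region of the T-cell receptor alpha chain, and 1 nearest to Tcrg-C4, a gamma chain gene. These genes were picked after their values were seen. The DNA of these loci is rearranged in T cells.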
